A study of Danio rerio with 18 samples.

Results

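The PAR bZIP genes and their nfil3 relatives were followed in whole zebrafish (Danio rerio) carrying the stl297 allele of scospondin. Membership was set by name: tefa, tefb, dbpa, dbpb, hlfa, hlfb, nfil3, nfil3-5 and nfil3-6 were looked up in the deposited gene table, and all 9 were found among its 28870 gene names. These names were chosen with earlier results of these data known. At each of 3 ages, 5, 15 and 30 days post fertilisation (dpf), 3 libraries came from maternal zygotic mutants (MZ) and 3 from heterozygotes (het), giving 18 libraries in 6 groups. In an MZ fish both the mother and the embryo are mutant, so the egg and the embryo alike supply only the mutant product. The series describes the allele as hypomorphic, that is, as one that lowers function without abolishing it. Every group carried at least 1 copy of the allele, and no wild-type group was analysed here. The labels give whole bodies, no treatment and typical growth. They give no hour of collection, light schedule, clutch or number of fish per library, so the replicates may be technical and p-values measure only the spread between these libraries. Since no clutch is labelled, a difference between genotypes cannot be told apart from a difference between clutches.

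PAR bZIP proteins (Tef, Dbp and Hlf) are basic leucine zipper activators named for a proline and acidic amino acid rich region, and they bind a DNA element called the D-box. Nfil3, also known as E4BP4, binds the same element and represses, so in mammals both kinds of factor work as opposing outputs of the circadian clock. In zebrafish, D-boxes also carry the response to light in genes such as per2, and tefa is known as one of the factors that act there. Zebrafish hold duplicate copies of tef, dbp and hlf, and several nfil3 genes.

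Total counts ran from 10178388 to 17141819 per library, and the members had between 22 and 4020 counts in a library, so all 9 passed the filter on low counts in each fit. The targeted gene, scospondin, had 1 to 16 counts per library, which is too few to check the genotype labels. Levels are given as CPM, the count of a gene scaled to library size with TMM factors over all 18 libraries, with the SD over 3 libraries. Fold changes, their standard errors (SE) and p-values are from edgeR's quasi-likelihood test, p-values are adjusted over all genes tested by Benjamini-Hochberg, and a gene is called at an adjusted p under 0.05. In whole bodies, fewer cells of a type and less RNA per cell cannot be told apart. Markers of neurons, photoreceptors, muscle, liver and exocrine pancreas were detected, although gap43 among the neuron markers was at 0 in every library.

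Per kilobase of the deposited gene length, tefa was the most abundant member, with a mean of 65.3 CPM per kb over the 18 libraries. The repressor gene nfil3 followed at 13.3 CPM per kb, then tefb at 7.05 and dbpb at 6.51. The remaining members averaged 4.87 (nfil3-6), 3.54 (hlfa), 2.83 (hlfb), 2.54 (dbpa) and 2.49 CPM per kb (nfil3-5). Variation between groups did not follow abundance: the highest group mean of dbpb was 14.8 times its lowest, against 4.26 times for tefb, 2.16 times for tefa and 1.63 times for nfil3-5.

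**Figure D1:**
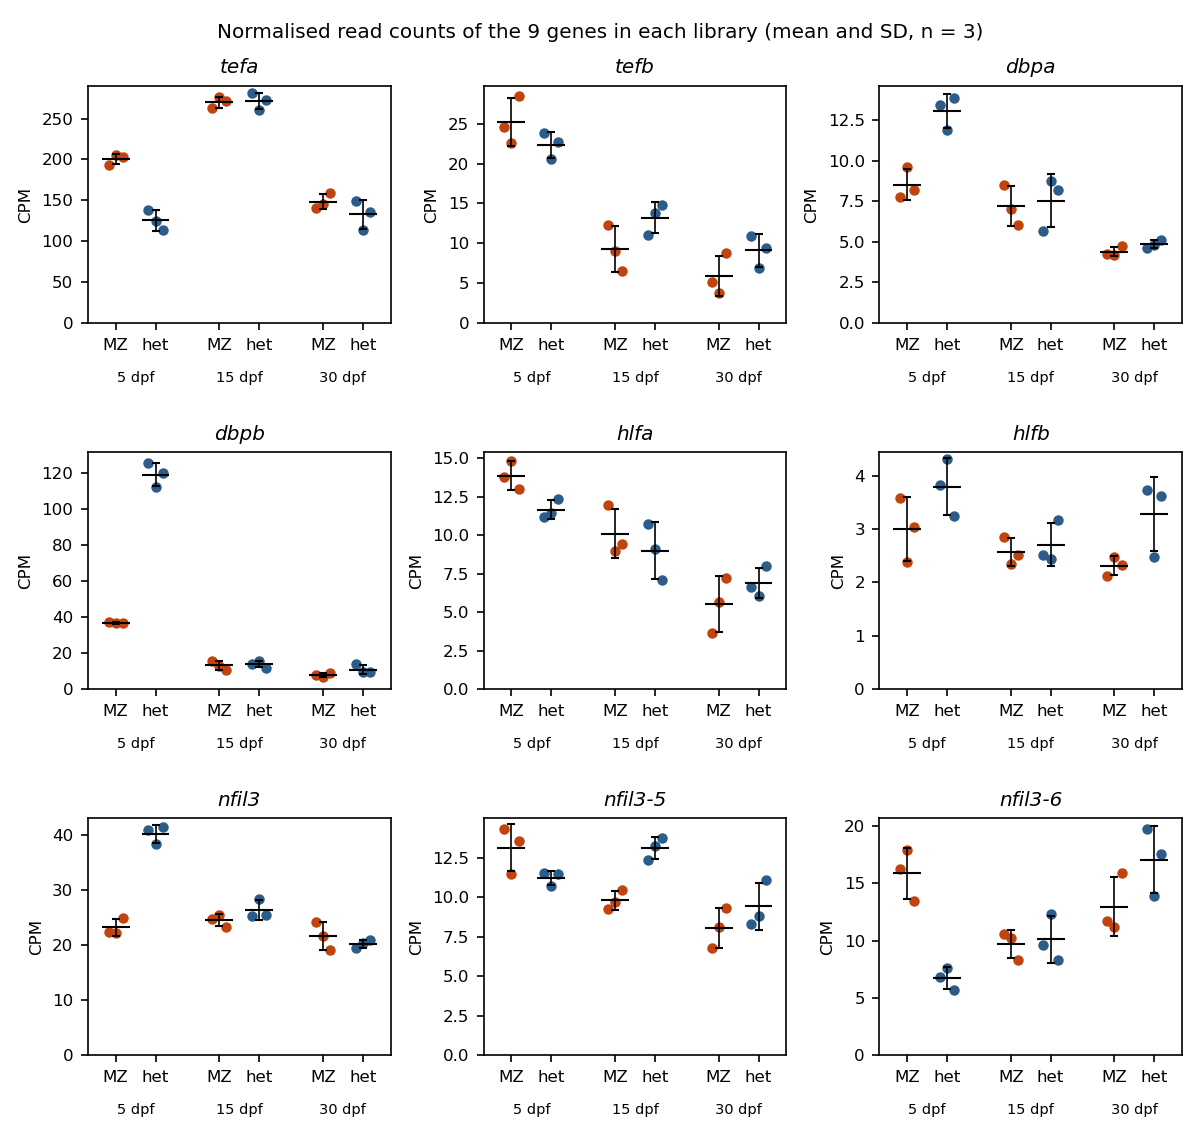
CPM of each of the 9 genes in every library at 5, 15 and 30 dpf, with MZ and het side by side, points for libraries and lines with bars for the group mean and SD (n = 3). The y axis is linear and starts at 0 in each panel. At 5 dpf dbpb sat between 36.5 and 37.5 CPM in MZ fish and between 112 and 125 CPM in het fish, while at 15 dpf the genotypes overlapped.

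At 5 dpf the family split in both directions between genotypes. In MZ larvae tefa and nfil3-6 were higher, and dbpa, dbpb and nfil3 were lower. These 5 of 9 members (55.6%) were called, in a comparison in which 40.7% of all genes tested were called (21.1% higher and 19.6% lower). The genotypes' CPM ranges did not overlap for 6 of the 9, against 52.2% of all genes. The members' median log2 fold change was 0.25, against -0.0028 for all genes, and with 9 genes a share of 55.6% is near the background.

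Among the activators, tefa had 193.7, 205.3 and 203.0 CPM in MZ larvae, against 138.4, 124.6 and 113.5 CPM in het larvae. Every MZ library was above every het library, and the log2 fold change was 0.75 with an SE of 0.0994 (edgeR adjusted p = 4.8e-05), a 1.69-fold higher level. Its duplicate tefb spanned 22.6 to 28.5 CPM in MZ larvae and 20.6 to 23.8 CPM in het larvae. The tefb ranges overlapped and the difference was not called (log2 fold change 0.25, 95% interval -0.0055 to 0.50, edgeR adjusted p = 0.11).

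The largest difference of the family was in dbpb, one of the zebrafish copies of Dbp, an activator whose RNA in mouse tissues swings widely over the day. It had 37.5, 36.5 and 36.6 CPM in MZ larvae, against 125.4, 112.4 and 119.8 CPM in het larvae. The MZ libraries differed among themselves by about 1 CPM and all lay far below the het libraries, a 3.07-fold lower level. The log2 fold change was -1.62 with an SE of 0.0962 (edgeR adjusted p = 5.74e-08), and by p-value dbpb stood at rank 10 of 19779 genes tested. The other copy, dbpa, had 7.75, 9.59 and 8.21 CPM in MZ larvae, against 13.4, 11.9 and 13.9 CPM in het larvae. It too was lower in all MZ libraries, by less (log2 fold change -0.55, SE 0.147, edgeR adjusted p = 0.00789).

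The hlf pair, copies of hepatic leukaemia factor, was not called. hlfa spanned 13.0 to 14.8 CPM in MZ larvae and 11.2 to 12.3 CPM in het larvae. Although these hlfa ranges did not overlap, the adjusted p was 0.0647 by edgeR (log2 fold change 0.32, 95% interval 0.039 to 0.60). hlfb was the scarcest member by CPM, at 2.38 to 3.58 CPM in MZ larvae and 3.24 to 4.31 CPM in het larvae, with overlapping ranges and an interval of -0.73 to 0.26 for its log2 fold change.

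The nfil3-type repressor genes moved in opposite directions. nfil3 had 22.5, 22.2 and 25.0 CPM in MZ larvae, against 41.0, 38.4 and 41.5 CPM in het larvae. All MZ libraries were below all het libraries (log2 fold change -0.72, SE 0.104, edgeR adjusted p = 9.77e-05). For nfil3-6, MZ larvae had 16.3, 17.9 and 13.4 CPM, against 6.83, 7.64 and 5.72 CPM in het larvae. That is a 2.5-fold higher level without overlap (log2 fold change 1.32, SE 0.161, edgeR adjusted p = 2.46e-05). nfil3-5 spanned 11.5 to 14.3 CPM in MZ larvae and 10.7 to 11.5 CPM in het larvae, overlapped, and was not called (edgeR adjusted p = 0.0866, 95% interval 0.015 to 0.59 on the log2 scale). In the RefSeq annotation of assembly GRCz12tu, where all 9 symbols were found, nfil3-6 lies next to a further family gene, nfil3-2, which is not a member. nfil3-2 averaged 5.07 CPM in MZ larvae and 6.99 CPM in het larvae and was not called (log2 fold change -0.39, SE 0.182, edgeR adjusted p = 0.101). How the counting treated reads shared by family copies is not given in the sources used here, so values of such copies are uncertain to that extent.

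**Figure D2:**
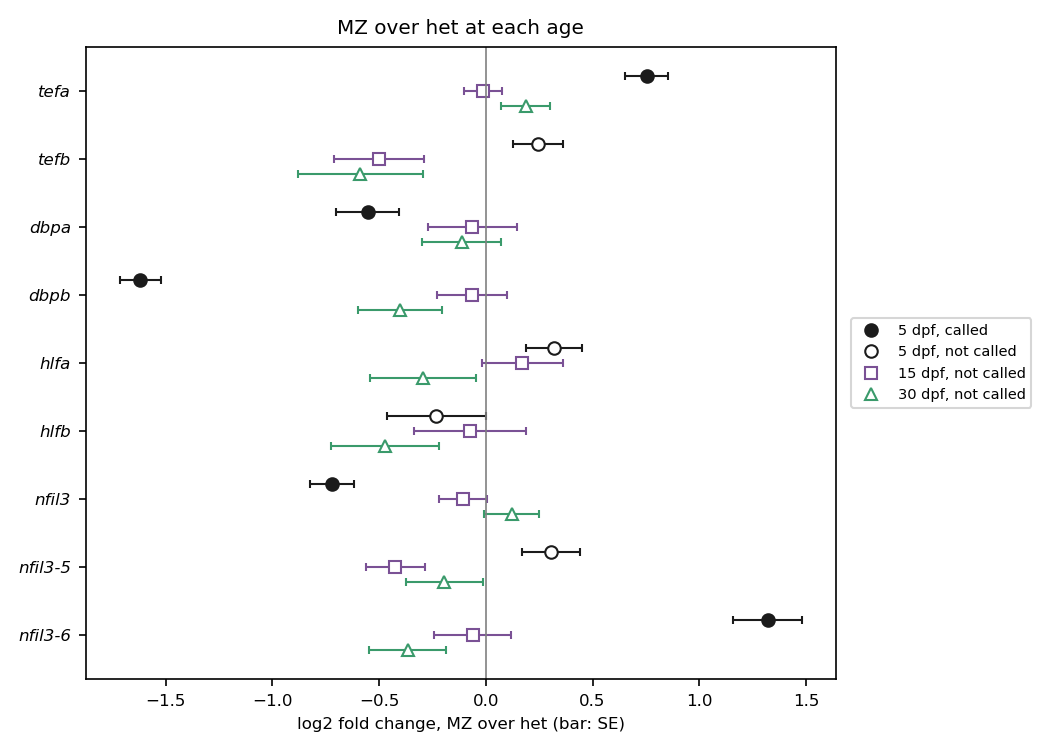
Log2 fold change of MZ over het for each member at 5, 15 and 30 dpf, with bars for the SE from the edgeR fits. Filled points are called and open points are not. At 5 dpf the values run from -1.62 for dbpb to 1.32 for nfil3-6, and none of the 9 is called at 15 or 30 dpf.

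At 15 and 30 dpf no member was called. At 15 dpf edgeR called 0 of 9, against 0.886% of all genes tested, DESeq2 also called 0 (1 member had no adjusted p), and 2 members had an unadjusted p under 0.05, as did 18.9% of all genes. At 30 dpf edgeR called 0 of 9, against 3.29% of all genes, DESeq2 called 0, and 0 had an unadjusted p under 0.05, against 22.3% of all genes. Few genes of any kind were called at these ages, so a count of 0 out of 9 is near the background. Ranges did not overlap for 1 member at each age, against 23.3% of all genes at 15 dpf and 27.8% at 30 dpf.

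At 15 dpf the genes that differed most at 5 dpf lay close together. tefa had 262.7, 275.8 and 270.9 CPM in MZ fish, against 280.7, 260.8 and 272.6 CPM in het fish, with a 95% interval of -0.20 to 0.18 for the log2 fold change. dbpb had 15.7, 13.1 and 10.8 CPM in MZ fish, against 14.0, 15.4 and 12.0 CPM in het fish, with an interval of -0.42 to 0.29. For both genes the MZ and het libraries were interleaved, and each interval leaves out the value seen at 5 dpf. nfil3 (24.6 ± 1.13 CPM in MZ fish and 26.4 ± 1.8 CPM in het fish, SD, n = 3 each) and nfil3-6 (9.69 ± 1.22 CPM in MZ fish and 10.1 ± 2.05 CPM in het fish) also overlapped. nfil3-5 was the member whose ranges stood apart, with 9.24, 9.69 and 10.5 CPM in MZ fish, against 12.4, 13.2 and 13.7 CPM in het fish. Its log2 fold change was -0.42 with an SE of 0.139 (edgeR adjusted p = 0.138, unadjusted p = 0.00951), and so it did not pass. tefb reached an unadjusted p of 0.0337 (log2 fold change -0.50, edgeR adjusted p = 0.228), and single libraries moved it: the log2 fold change was -0.77 without MZ replicate 1, where it was called (edgeR adjusted p = 0.0419), and -0.29 without MZ replicate 3 (edgeR adjusted p = 0.511).

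At 30 dpf dbpb had 8.03, 7.004 and 9.18 CPM in MZ fish, against 13.9, 9.47 and 9.42 CPM in het fish. Its ranges stood narrowly apart, and the difference was not called (log2 fold change -0.40, SE 0.197, edgeR adjusted p = 0.261). Without het replicate 1, the highest het library, the log2 fold change was -0.21. tefb spanned 3.84 to 8.78 CPM in MZ fish and 6.93 to 10.9 CPM in het fish, with an interval of -1.24 to 0.066, the widest among the members at this age. Its log2 fold change was -0.59 with all libraries, -0.99 when MZ replicate 3 was left out and -0.36 when MZ replicate 2 was, with no call in any of the 3 fits. nfil3-6 spanned 11.2 to 15.9 CPM in MZ fish and 13.9 to 19.7 CPM in het fish. Of the 9 fold changes at 30 dpf, tefa (0.19) and nfil3 (0.12) were positive and the other 7 were negative, and each of the 9 intervals included 0.

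Whether the genotype difference itself changed with age was tested in 1 fit over all 18 libraries. By edgeR, 5 of 9 members were called, against 33.3% of all genes tested. With 9 genes, this count is not far from that background. The adjusted p was 2.86e-05 for dbpb, 0.000238 for nfil3-6, 0.000294 for nfil3, 0.00243 for tefa and 0.0407 for nfil3-5. On the log2 scale the MZ over het difference of dbpb was 1.63 higher at 15 dpf than at 5 dpf and 1.27 higher at 30 dpf than at 5 dpf. That of nfil3-6 was lower by comparison with 5 dpf, with differences of -1.30 at 15 dpf and -1.64 at 30 dpf. dbpa, which was called at 5 dpf, was not called here (edgeR adjusted p = 0.13), so its genotype differences at the 3 ages were not shown to differ. The call for nfil3-5 held in 12 of 22 alternative fits, with edgeR or DESeq2 adjusted p from 0.024 to 0.112. It was lost without a filter on low counts and without any 1 of 9 libraries, namely MZ 5 dpf replicates 1 and 3, all 3 het 5 dpf libraries, MZ 15 dpf replicates 1 and 2 and het 15 dpf replicates 2 and 3. Those of tefa, dbpb, nfil3 and nfil3-6 held in all 22.

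The genotype difference was thus shown to differ between ages only for the members called in the interaction. For all members, the steps between ages are described next within each genotype. Each age has its own libraries, with no hour of collection, light schedule or clutch labelled. The part of these in the steps was not tested. A gene that rose or fell had a higher or lower level in the libraries of the later age. These steps share their libraries with the genotype comparisons above and with each other, so they are the same values read along age and no separate evidence.

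In het fish between 5 and 15 dpf, 6 of 9 members were called, against 39.7% of all genes (19.7% higher and 20% lower). Ranges stood apart for 9 of 9, against 50.6% of all genes. tefa rose (271.4 ± 9.99 CPM at 15 dpf, against 125.5 ± 12.5 CPM at 5 dpf), with a log2 fold change of 1.13 with an SE of 0.0984 (edgeR adjusted p = 4.59e-07). dbpb fell 8.56-fold (13.8 ± 1.7 CPM at 15 dpf, against 119.2 ± 6.51 CPM at 5 dpf, SD, n = 3 each), with a log2 fold change of -3.10 with an SE of 0.113 (edgeR adjusted p = 8.8e-11). tefb, dbpa and nfil3 also fell, by 0.75, 0.79 and 0.60 on the log2 scale. nfil3-6 rose by 0.61 (edgeR adjusted p = 0.0151), a call that was lost without het 5 dpf replicate 3 (adjusted p = 0.0566) or het 15 dpf replicate 2 (adjusted p = 0.0847).

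The same step in MZ fish gave 6 of 9 called, against 57% of all genes (27.7% higher and 29.3% lower), and ranges apart for 6 of 9, against 63.5%. tefa again rose (269.8 ± 6.62 CPM at 15 dpf, against 200.7 ± 6.14 CPM at 5 dpf), with a log2 fold change of 0.40 with an SE of 0.094 (edgeR adjusted p = 0.00243). dbpb again fell (13.2 ± 2.46 CPM at 15 dpf, against 36.9 ± 0.533 CPM at 5 dpf), with a log2 fold change of -1.50. tefb fell by 1.45 (25.2 ± 2.98 CPM at 5 dpf), the second largest fall in this step. nfil3-6, which rose in het fish, fell by 0.73 in MZ fish (edgeR adjusted p = 0.00175). nfil3 was not called in MZ fish (24.6 ± 1.13 CPM at 15 dpf, against 23.2 ± 1.55 CPM at 5 dpf, interval -0.20 to 0.31 on the log2 scale). hlfa and nfil3-5 were called lower at 15 dpf, by 0.47 and 0.45. The hlfa call was lost without 5 dpf replicate 2, 15 dpf replicate 2 or 15 dpf replicate 3 (edgeR adjusted p = 0.0692, 0.101 and 0.0802), and by DESeq2 neither was called. Among the fits that left out 1 library, the nfil3-5 call was kept only without 5 dpf replicate 2 or 15 dpf replicate 3, and its adjusted p reached 0.0713 without 5 dpf replicate 1. Of the 5 alternatives that kept all libraries, hlfa was called in 3 and nfil3-5 in 4.

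Between 15 and 30 dpf tefa fell in both genotypes. In MZ fish it had 148.6 ± 9.38 CPM at 30 dpf, against 269.8 ± 6.62 CPM at 15 dpf (log2 fold change -0.80, SE 0.103, edgeR adjusted p = 0.000353). In het fish it had 133.1 ± 17.6 CPM at 30 dpf, against 271.4 ± 9.99 CPM at 15 dpf (log2 fold change -1.03, SE 0.108, edgeR adjusted p = 6.28e-05). In MZ fish 3 of 9 members were called, against 19.3% of all genes (10.2% higher and 9.05% lower), and each of tefa, dbpb and hlfa fell. In het fish 5 of 9 were called, against 21.5% of all genes (10.6% higher and 10.9% lower): tefa, dbpa, nfil3 and nfil3-5 fell and nfil3-6 rose by 0.76 (SE 0.176, edgeR adjusted p = 0.0102). Ranges stood apart for 5 of 9 in MZ fish, against 38% of all genes, and for 6 of 9 in het fish, against 38.4%. The tefa calls, and that of nfil3-6 in het fish, held when each library was left out in turn. The other calls were lost in most of the fits that left out 1 library, while their fold changes stayed negative. Fewer genes of any kind were called in these fits too. In MZ fish dbpb kept its call only without 15 dpf replicate 3 or 30 dpf replicate 3 (edgeR adjusted p up to 0.129 without 15 dpf replicate 1), and hlfa only without 30 dpf replicate 3 (up to 0.141 without 15 dpf replicate 1). In het fish dbpa kept its call only without 15 dpf replicate 1 (up to 0.143 without 15 dpf replicate 2), nfil3-5 only without 30 dpf replicate 3 (up to 0.124 without 30 dpf replicate 2), and nfil3 only without 15 dpf replicate 3 or 30 dpf replicate 3 (up to 0.097 without 15 dpf replicate 2). The counts without 1 library ran from 1 to 4 in MZ fish and from 2 to 4 in het fish.

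**Figure D3:**
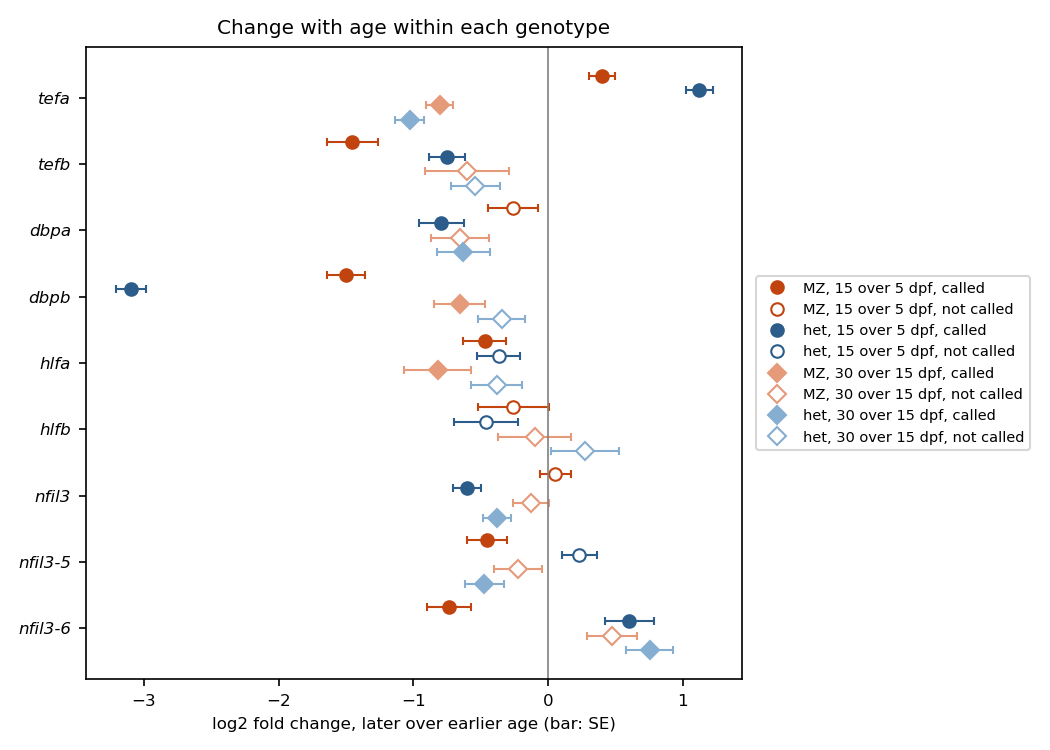
Log2 fold change of each member from 5 to 15 dpf and from 15 to 30 dpf within MZ and within het fish, later age over earlier, with bars for the SE. Filled points are called. In the first step dbpb has -1.50 in MZ fish and -3.10 in het fish, and nfil3-6 has -0.73 in MZ fish and 0.61 in het fish.

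The order of the 6 groups differed by member. tefa was highest at 15 dpf in both genotypes, which overlapped, then in MZ fish at 5 dpf, below which the 30 dpf groups and het fish at 5 dpf overlapped from one to the next. dbpb was highest in het fish at 5 dpf, then in MZ fish at 5 dpf, each apart from the next, with the other 4 groups far below. nfil3 stood apart only in het fish at 5 dpf, above the other 5 groups, and nfil3-6 only in het fish at 5 dpf, below the other 5. For hlfb no neighbouring groups were separated, at 2.31 to 3.80 CPM on average.

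Ratios within a library do not depend on scaling between libraries. dbpb had 0.184 ± 0.00814 reads per tefa read in MZ larvae at 5 dpf, against 0.956 ± 0.0901 in het larvae (SD, n = 3 each). At 15 dpf the same ratio was 0.0491 ± 0.01 in MZ fish and 0.0511 ± 0.00751 in het fish. At 30 dpf it was 0.0543 ± 0.00527 in MZ fish and 0.0817 ± 0.0121 in het fish. So tefa and dbpb gave nearly equal read numbers in het larvae at 5 dpf alone among the 6 groups, and tefa exceeded dbpb by far in the other 5. These read ratios are not corrected for gene length, which is 2932 bases for tefa and 5177 for dbpb. Per kilobase, het larvae at 5 dpf had 42.8 CPM of tefa and 23.0 CPM of dbpb. Between the repressor genes, nfil3-6 had 0.537 to 0.804 reads per nfil3 read in MZ larvae at 5 dpf, against 0.138 to 0.199 in het larvae. At 15 dpf this ratio was 0.394 ± 0.0349 in MZ fish and 0.381 ± 0.053 in het fish. At 30 dpf it was 0.612 ± 0.192 in MZ fish and 0.842 ± 0.165 in het fish, so the order of the means was reversed there.

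Summed per kilobase at 5 dpf, the 6 PAR bZIP genes differed less between genotypes than their makeup did. The sum was 99.0 ± 2.14 CPM per kb in MZ larvae and 89.3 ± 5.48 CPM per kb in het larvae, and the 3 nfil3-type genes summed to 21.3 ± 0.0945 CPM per kb in MZ larvae and 25.9 ± 0.631 CPM per kb in het larvae. Of the PAR bZIP sum, tefa made up 69.1% in MZ larvae and 47.9% in het larvae, and dbpb 7.2% in MZ larvae and 25.8% in het larvae. The PAR bZIP sum was 4.64 ± 0.11 times the nfil3-type sum in MZ larvae and 3.45 ± 0.175 times in het larvae. At 15 dpf that ratio was 5.76 ± 0.193 in MZ fish and 5.38 ± 0.546 in het fish, and at 30 dpf it was 3.35 ± 0.3 in MZ fish and 3.05 ± 0.282 in het fish. These sums describe RNA, are dominated by tefa, and were not tested.

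**Figure D4:**
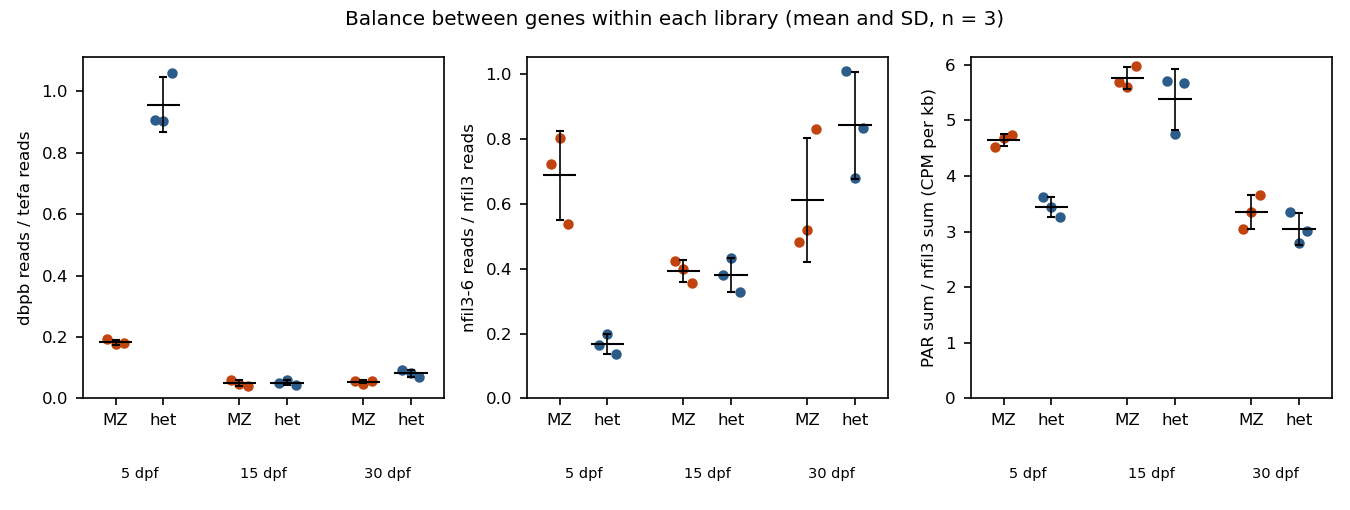
Within-library ratios at 5, 15 and 30 dpf: dbpb reads per tefa read, nfil3-6 reads per nfil3 read, and the summed PAR bZIP level per summed nfil3-type level (CPM per kb). Points are libraries and lines with bars are group means and SDs (n = 3), with MZ beside het at each age. The dbpb to tefa ratio is 0.178 to 0.193 in MZ larvae and 0.902 to 1.06 in het larvae at 5 dpf.

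The rest of the clock was read from a list of 38 other clock genes, of which 37 were in the table. At 5 dpf 29 of 37 (78.4%) were called in MZ against het larvae, 20 higher and 9 lower, against 40.7% of all genes (21.1% higher and 19.6% lower), with a median log2 fold change of 0.61. At 15 and 30 dpf edgeR called 0 of 36 each, against 0.886% and 3.29% of all genes, DESeq2 also called 0 (7 of 36 had no adjusted p at 15 dpf), and 8 of 36 had an unadjusted p under 0.05 at each age, which is near the 18.9% of all genes at 15 dpf and 22.3% at 30 dpf. The interaction with age was called for 25 of 37, against the 33.3% of all genes given above. The light-induced period gene per2 had 71.5 ± 0.825 CPM in MZ larvae and 4.63 ± 0.781 CPM in het larvae at 5 dpf, 16.4-fold higher (log2 fold change 4.04, SE 0.133, edgeR adjusted p = 9.03e-11). Its means in MZ and het fish were 70.8 and 85.2 CPM at 15 dpf, and 32.9 and 46.2 CPM at 30 dpf. Het larvae at 5 dpf were thus the low group, and MZ larvae were near the 15 dpf level. At 5 dpf the cryptochrome genes cry1bb and cry1ba were higher in MZ larvae by 2.26 and 1.21 on the log2 scale, and cry-dash, a cryptochrome-family gene, by 1.16. The repressor gene bhlhe41 had 54.1 ± 3.58 CPM in MZ larvae and 116.2 ± 1.18 CPM in het larvae (log2 fold change -1.03), and ciarta, a relative of the mammalian clock repressor Ciart, changed by -0.94. None of these 6 was called at 15 or 30 dpf.

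Genes linked to D-boxes or to PAR bZIP factors, a list of 14 that shares 4 genes with the clock list, gave 8 of 14 called at 5 dpf (57.1%), 6 higher and 2 lower in MZ larvae, against 40.7% of all genes, with a median log2 fold change of 0.21. At 15 and 30 dpf edgeR called 0 of 14, against 0.886% and 3.29% of all genes. DESeq2 also called 0 of 14 at each age (2 had no adjusted p at 15 dpf). By edgeR, 3 of 14 had an unadjusted p under 0.05 at each age, against 18.9% of all genes at 15 dpf and 22.3% at 30 dpf. Both counts are near the background for so short a list. Besides per2, cry5, a light-induced DNA photolyase gene, had 20.6 ± 4.89 CPM in MZ larvae and 2.99 ± 0.874 CPM in het larvae at 5 dpf (log2 fold change 2.83, SE 0.214, edgeR adjusted p = 2.92e-07). The DNA repair gene xpc had 22.1 ± 1.43 CPM in MZ larvae and 8.09 ± 0.881 CPM in het larvae (log2 fold change 1.51), and cry1aa, another cryptochrome gene, had 66.8 ± 17.2 CPM in MZ larvae and 19.97 ± 1.39 CPM in het larvae (log2 fold change 1.81). At 15 dpf the MZ and het means were 21.5 and 25.6 CPM for cry5, 21.6 and 21.75 CPM for xpc, and 34.9 and 40.5 CPM for cry1aa. The means of MZ larvae at 5 dpf were near these for cry5 and xpc and above them for cry1aa. At 30 dpf the MZ and het means were 12.2 and 11.7 CPM for cry5, 10.2 and 9.09 CPM for xpc, and 36.6 and 30.8 CPM for cry1aa. For xpc these 30 dpf means were nearer to het than to MZ larvae at 5 dpf, and for cry5 they lay between the 5 dpf groups. The genes named from both lists were taken in order of the interaction F, so that their differences are concentrated at 1 age follows from that choice. Among the other listed genes, ddb2 and porb were also called higher at 5 dpf (log2 fold change 1.43 and 1.18). The ddb2 ranges stood apart, while those of porb overlapped, at 34.2 to 94.3 CPM in MZ larvae and 28.5 to 34.8 CPM in het larvae. The 2 called lower were per1a (log2 fold change -1.36, edgeR adjusted p = 2.89e-05) and cyp7a1a (-0.75, edgeR adjusted p = 0.00161). neil1 and pdxka each had a log2 fold change of 0.18 at 5 dpf and were not called (edgeR adjusted p = 0.399 and 0.251). No hour of collection or lighting is labelled, and the part of either in the 5 dpf differences was not tested.

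**Figure D5:**
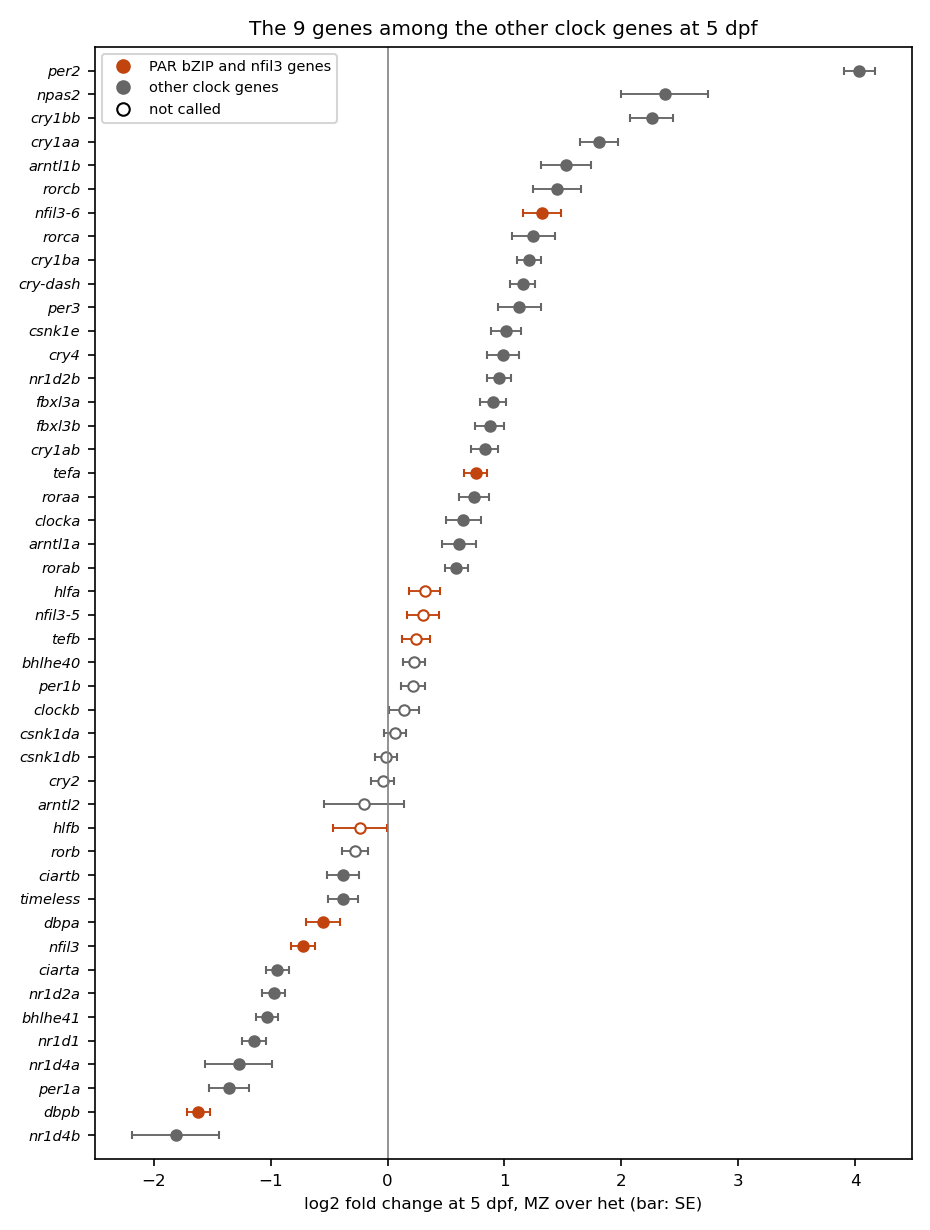
Log2 fold change of MZ over het at 5 dpf for the 9 members and the 37 other clock genes found in the table, sorted by value, with bars for the SE and filled points for called genes. The members lie among the other genes on both sides of 0, from -1.62 for dbpb, with nr1d4b at -1.81 below it, to 1.32 for nfil3-6, and per2 is highest at 4.04.

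Tissue markers also moved at 5 dpf, when 21.1% of all genes were called higher and 19.6% lower. The 7 neuron markers summed to 1080 to 1360 CPM in MZ larvae and 498 to 762 CPM in het larvae, and 6 of 6 tested were called higher. The exocrine pancreas markers (7 of 8 in the table) summed to 16900 to 20300 CPM in MZ larvae and 10600 to 15600 CPM in het larvae, with 6 of 7 called higher. Photoreceptor and pineal markers (7 of 8 in the table) summed to 8520 to 9400 CPM in MZ larvae and 6200 to 8000 CPM in het larvae, with 5 of 7 called higher and 1 lower. Liver markers summed to 4190 to 5130 CPM in MZ larvae and 5290 to 6380 CPM in het larvae, while 2 of 6 were called higher, 0 lower, and their median log2 fold change was -0.0039, so the sum and the calls differ in sign. Muscle markers summed to 58700 to 71400 CPM in MZ larvae and 48100 to 61100 CPM in het larvae, with 2 of 6 called higher. Blood markers, with 2 of 4 in the table, stayed between 8.44 and 14.1 CPM in MZ larvae and between 9.43 and 11.6 CPM in het larvae. At 30 dpf the neuron markers lay the other way, at 454 to 539 CPM in MZ fish and 663 to 861 CPM in het fish, with 4 of 6 called lower, against 3.29% of all genes called in either direction. Exocrine pancreas sums also lay the other way, at 21400 to 27500 CPM in MZ fish and 30300 to 40800 CPM in het fish, with 0 of 7 called. Liver and muscle sums kept their 5 dpf order, with 0 of 6 called in each list. Photoreceptor and blood sums overlapped, with 1 of 7 photoreceptor markers called higher. At 15 dpf, when 0.886% of all genes were called, neuron sums were 689 to 955 CPM in MZ fish and 568 to 689 CPM in het fish. Photoreceptor sums were then 1580 to 2790 CPM in MZ fish and 794 to 1720 CPM in het fish. There 1 of 6 neuron and 1 of 7 photoreceptor markers were called higher, and 1 of 6 muscle markers lower. The part of these tissue markers in the members' differences was not tested.

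Genes with the most similar course over the 18 libraries were sought among 12857 genes of at least 5 CPM, by the root mean square difference of centred log2(CPM + 1) profiles. For dbpb the nearest were nr1d2a, a Rev-erb family clock gene, at 0.263 and zfand5a at 0.279, where the profile of dbpb itself had an SD of 1.33. tefa (SD 0.479) was nearest to sik2b at 0.186 and zgc:92518 at 0.199. nfil3 (SD 0.331) was nearest to mycb at 0.129 and ctns at 0.139, and nfil3-6 (SD 0.468) to chd3 at 0.233 and map1ab at 0.245. The nearest to tefb were mtss1la (0.227) and slc8a1b (0.255), to dbpa wnt7aa (0.158) and plxdc2 (0.175), to hlfa ank3a (0.173) and barhl2 (0.181), and to nfil3-5 snrka (0.135) and ubtf (0.141). hlfb averaged under 5 CPM and was not matched. The profiles share libraries and depth, and the distances are a description.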

How the data were processed

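Per the labels' protocols, whole-fish RNA was extracted in Trizol, passed over a clean-up column and turned into SMARTer libraries. The deposited values are raw counts, listed by gene name beside a gene length for all 18 libraries. The submitters' processing notes name cutadapt, STAR 2.5.4b, featureCounts 1.6.3 and the genome build GRCz10. Strand use and the treatment of shared reads are not given in the sources used here. SMARTer amplification without molecular identifiers makes reads not independent molecules.

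Sample titles gave the group and the replicate number. Each comparison was fitted on its own 6 libraries in edgeR 4.0.16 (R 4.3.3): filterByExpr with a minimum count of 10, TMM scaling, the quasi-likelihood test, and Benjamini-Hochberg adjustment over all genes tested. The interaction was fitted over all 18. SE was the absolute log2 fold change over the square root of F, and 95% intervals, unadjusted, used t quantiles. The code was tested on simulated data. Alternatives were RLE size factors, DESeq2 1.42.0, no filter, a replicate block, 1 fit over all libraries, and leaving out each library.

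The members and lists were chosen with earlier results of these data known. Named were all members, at most 6 clock and 4 D-box genes called in the interaction, in order of its F, and the 2 genes nearest each member. nfil3-2, neil1, pdxka, ddb2, porb, per1a, cyp7a1a and nr1d4b were named after their values were seen. Promoter and protein sequences were not analysed here.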

Additional observations from a re-analysis of the deposited data

Results flagged for a closer look

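The difference between MZ and het fish itself differed between ages for 5 of 9 members, against 33.3% of all genes tested. With 9 genes, this count is not far from that background. The test was edgeR's quasi-likelihood test of the genotype by age terms over all 18 libraries, adjusted over all genes tested. The adjusted p was 2.86e-05 for dbpb, whose MZ over het log2 fold changes were -1.62, -0.07 and -0.40 at 5, 15 and 30 dpf. It was 0.000238 for nfil3-6, with fold changes of 1.32, -0.06 and -0.37. It was 0.000294 for nfil3, with -0.72, -0.11 and 0.12. It was 0.00243 for tefa, with 0.75, -0.01 and 0.19. For nfil3-5 it was 0.0407, with 0.30, -0.42 and -0.19, and none of these 3 differences was called on its own. The interaction call of nfil3-5 held in only 12 of 22 alternative fits, while those of dbpb, nfil3-6, nfil3 and tefa held in all 22.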

How the results depend on the processing

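At 5 dpf all 9 members kept their direction and their side of the threshold in each of the 11 alternatives, with dbpb from -1.69 to -1.60, nfil3-6 from 1.22 to 1.42, tefa from 0.68 to 0.82, nfil3 from -0.79 to -0.69 and dbpa from -0.65 to -0.48. With 1 fit over all libraries, genes called at 5 dpf were 3248 higher and 4517 lower, against 4172 and 3871 in the separate fit. At 15 dpf values near 0 changed sign: tefa was 0.0033 with RLE size factors and 0.0032 with DESeq2, and without 1 library tefa ran from -0.0403 to 0.0111, dbpa from -0.24 to 0.0557, dbpb from -0.22 to 0.0669, hlfb from -0.16 to 0.0544 and nfil3-6 from -0.18 to 0.10. The 171 genes called at 15 dpf became 636 with DESeq2, 543 without a filter, 77 with the replicate block, 278 with 1 fit over all libraries and 2 to 923 without 1 library, and members called 0 to 1. The 657 genes called at 30 dpf became 1224 with DESeq2, 1770 with 1 fit and 1 to 1118 without 1 library. For 30 against 15 dpf, leaving out 1 library gave 2 to 4 members and 2772 to 3729 genes in het fish (5 and 4277 with all), and 1 to 4 members and 2434 to 3372 genes in MZ fish (3 and 3770 with all, 5768 genes with 1 fit). The causes were not tested. Same-numbered MZ and het libraries correlated at -0.0773 to 0.145 in their deviations, and 1 of 9 MZ libraries correlated best with its own number, so the numbers were not treated as pairs. With the replicate block, members called were 5 at 5 dpf, 0 at 15 dpf and 0 at 30 dpf, as without it, and 2 for MZ 30 against 15 dpf, where 3 were called without it. In the fits without the block, 40.7%, 0.886%, 3.29% and 19.3% of all genes were called in these comparisons, in that order. For the block fits the count of all genes is given here only at 15 dpf. hlfb had the lowest counts of the members, and its 95% intervals were wide, as at 30 dpf (-1.04 to 0.089 on the log2 scale). Wide intervals were not limited to it: that of tefb at 30 dpf was -1.24 to 0.066.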
